A study of Mus musculus with 8 samples.

Results

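Serum amyloid A and acute phase genes were examined in lung neutrophil samples from mice with and without pneumonia. The set comprised 9 genes, Saa1, Saa2, Saa3, Saa4, Ptx3, Lbp, Orm1, Hpx and Itih4, of 19836 genes with a symbol on the array, and each had 1 row among the 24625 rows of the deposited table. The genes were chosen by function, with earlier results of the same comparison known, so their differences, intervals and calls by the fit over all rows are given here as a description and are no independent test. Acute phase proteins are plasma and tissue proteins whose synthesis changes during infection or injury. Most are made in the liver, where the cytokines interleukin-6, interleukin-1 and TNF act through STAT3, C/EBP and NF-κB, but some are also made at the site of inflammation by epithelium, macrophages and neutrophils. Serum amyloid A proteins are small apolipoproteins of high density lipoprotein that bind bacteria and retinol and attract leukocytes.

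The study compared wild type C57BL/6J mice, 6 to 12 weeks old by the labels, that had received Streptococcus pneumoniae (SP) or the carrier alone, phosphate-buffered saline (PBS). Instillation was intratracheal, to the left lung, with 2.3 µl per g of body weight, and lungs were digested to single cells after 24 h. Ly6G-positive cells were then bound to magnetic beads, a step that enriches neutrophils and does not remove all other cells. Purity was judged on stained slides in the pneumonia samples only. The study reports it as high there, with few other cells, which usually looked like alveolar macrophages. Each group had 4 samples, named by their replicate numbers, with 1 array per sample. Per the study, a sample came from a mouse, while the labels do not number the animals. The labelled cell type was checked by its markers. The mean log2 signal of 7 neutrophil genes lay between 12.95 and 13.17 on the PBS arrays and between 12.43 and 13.02 on the SP arrays. Ly6g itself had no matched row here, though the study reports its mRNA as high in every sample.

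The set did not move as one. Saa3 rose 67.2-fold and Orm1 10.8-fold in pneumonia, Saa2, Ptx3 and Saa1 rose from background level, Lbp and Hpx were lower, and Itih4 and Saa4 differed little. By the limma fit over all rows, 5 of the 9 genes were at least 2-fold higher at an adjusted p of at most 0.05, against 6.37% of all rows, and 0 were at least 2-fold lower, against 11.3%. At the adjusted p alone, the same 5 genes were higher (21.5% of all rows) and 2, Lbp and Hpx, were lower (22.6%). All SP values lay above all PBS values in 6 genes (27.2% of all rows) and below them in 2 (21.8%). Because the genes were picked with this contrast known, these counts describe the choice and support nothing further. The median difference of the 9 genes was 1.18 log2 units, beside 0.10 over all rows.

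**Figure D1:**
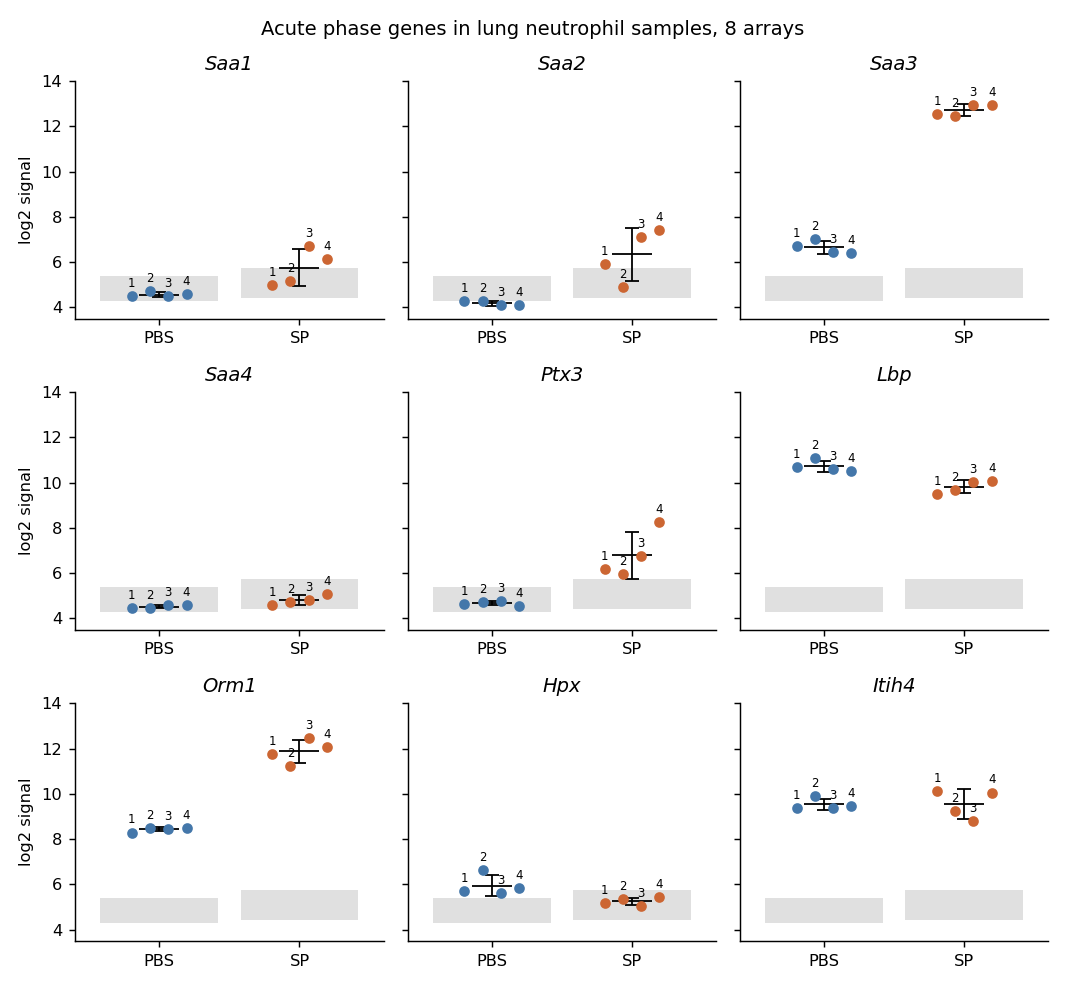
Log2 signal of the 9 genes on each array, PBS in blue and SP in orange, with replicate numbers above the points, the group mean and SD (n = 4) in black, and grey boxes for the 5th to 95th percentile of 1080 olfactory receptor genes in each group. Saa3 and Orm1 stood far above their PBS values on all 4 SP arrays, Saa1, Saa2 and Ptx3 started inside or below the grey box, and Saa4 stayed in it.

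Genes that lung neutrophils are not known to express served as a measure of background. The group means of 1080 olfactory receptor rows lay between 4.29 and 5.40 in PBS and between 4.42 and 5.73 in SP (5th to 95th percentile). Saa1, Saa2, Saa4 and Ptx3 lay below the 95th percentile of olfactory genes on every PBS array. Their fold changes are therefore not exact, since the PBS signal may be mostly background. Values are log2 signals of different probes, so the level of 1 gene is not set against that of another.

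The 4 serum amyloid A genes are neighbours on chromosome 7 of the mouse assembly GRCm38.p6, in the order Saa3, Saa4, Saa1 and Saa2 among protein-coding genes, with Saal1 and Hps5 on either side. RefSeq lists Saa2 as an older name of Saa1 and Saa1 as an older name of Saa2. Their promoter windows from RefSeq (250 bases before and 50 after the transcript start, GRCm38.p6) are shown because these genes share a locus and differed in response, and because the windows of Saa1 and Saa2 are nearly the same. Capitals mark matches to the C/EBP motif, spelled TTNNGNAA and searched on both strands. The windows are chr7:46742931-46743230 (minus strand) for Saa1, chr7:46751583-46751882 (plus strand) for Saa2, chr7:46715627-46715926 (minus strand) for Saa3 and chr7:46732554-46732853 (minus strand) for Saa4.
Saa1: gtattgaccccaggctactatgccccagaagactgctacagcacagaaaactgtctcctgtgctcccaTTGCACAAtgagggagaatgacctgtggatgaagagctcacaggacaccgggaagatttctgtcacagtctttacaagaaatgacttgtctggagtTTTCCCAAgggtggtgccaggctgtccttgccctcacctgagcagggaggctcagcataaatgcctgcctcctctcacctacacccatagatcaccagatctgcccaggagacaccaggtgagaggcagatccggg
Saa2: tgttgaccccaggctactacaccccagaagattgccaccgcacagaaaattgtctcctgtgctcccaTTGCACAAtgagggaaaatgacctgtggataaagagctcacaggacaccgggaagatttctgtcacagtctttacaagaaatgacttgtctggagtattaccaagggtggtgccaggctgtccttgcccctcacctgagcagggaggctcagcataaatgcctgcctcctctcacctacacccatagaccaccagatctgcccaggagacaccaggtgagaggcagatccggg
Saa3: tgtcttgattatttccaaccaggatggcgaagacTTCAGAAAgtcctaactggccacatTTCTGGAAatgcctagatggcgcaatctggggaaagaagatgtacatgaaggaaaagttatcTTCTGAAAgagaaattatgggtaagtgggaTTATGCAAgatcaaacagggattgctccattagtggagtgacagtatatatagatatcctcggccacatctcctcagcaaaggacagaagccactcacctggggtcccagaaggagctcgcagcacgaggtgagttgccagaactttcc
Saa4: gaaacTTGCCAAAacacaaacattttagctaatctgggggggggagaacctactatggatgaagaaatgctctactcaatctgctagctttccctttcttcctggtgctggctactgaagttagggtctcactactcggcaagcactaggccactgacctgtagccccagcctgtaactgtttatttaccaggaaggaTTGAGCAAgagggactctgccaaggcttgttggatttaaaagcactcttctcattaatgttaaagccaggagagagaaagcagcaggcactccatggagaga

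In an alignment of the windows of Saa1 and Saa2, 287 of 299 aligned bases (96.0%) were identical. The window of Saa3 held 4 C/EBP matches, those of Saa1 and Saa4 held 2 each, and that of Saa2 held 1. The C/EBP match of Saa1 nearest the start, from base -86 to -79, had no match at its place in Saa2. A C/EBP match of this loose spelling is common. It occurred in 40.7% of the 32851 promoter windows in the RefSeq table, so its presence marks no site of binding.

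Saa3 encodes the serum amyloid A that is made mainly outside the liver, by macrophages, epithelium and fat cells. The log2 signal of Saa3 was 6.69, 7.03, 6.45 and 6.41 on PBS arrays 1 to 4 and 12.56, 12.44, 12.93 and 12.93 on SP arrays 1 to 4. Every SP value exceeded every PBS value by more than 5 log2 units, and the 4 SP arrays lay close together. The mean rose from 6.64 ± 0.29 to 12.72 ± 0.25 (SD, n = 4), a difference of 6.07 with a standard error (SE) of 0.17. Leaving out any 1 array gave differences from 5.99 to 6.20.

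Saa1 and Saa2 encode the circulating serum amyloid A proteins that the liver releases in large amounts during an acute phase response. The log2 signal of Saa2 was 4.27, 4.30, 4.09 and 4.11 on the PBS arrays and 5.93, 4.89, 7.13 and 7.43 on the SP arrays. The SP values were all higher than the PBS values but spread widely, with SP 2 still inside the range of olfactory genes and SP 3 and SP 4 well above it. Saa2 rose 4.46-fold, from 4.19 ± 0.11 to 6.35 ± 1.16 (SD, n = 4, difference 2.16, SE 0.50).

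Saa1 showed the same arrangement with a smaller difference. Its log2 signal was 4.48, 4.72, 4.48 and 4.58 on the PBS arrays and 4.98, 5.15, 6.71 and 6.15 on the SP arrays. Only SP 3 and SP 4 exceeded the 95th percentile of olfactory genes. Saa1 was higher by 1.18 log2 units (SE 0.36), between 0.86 without SP replicate 3 and 1.44 without SP replicate 1, and its call at an adjusted p of 0.05 was lost under 6 of the 12 alternatives in which it was tested, among them those without PBS replicate 1, 3 or 4 or SP replicate 4. The transcripts of Saa1 and Saa2 are also much alike, so probes of either gene may bind both, and the 2 rows cannot be taken as separate readings.

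Saa4, which encodes a serum amyloid A made constitutively by the liver, stayed at background. Its log2 signal ran from 4.46 to 4.59 in PBS and from 4.61 to 5.10 in SP. No SP array passed the 95th percentile of olfactory genes, although the groups did not overlap. The difference of 0.29 (95% confidence interval 0.031 to 0.54) was about as large as the shift of 0.28 that centring each array on its median adds to every difference. Background was itself higher in SP, where the median of the olfactory genes was 4.89, against 4.68 in PBS. With centred arrays Saa4 was called at an adjusted p of at most 0.05, with a difference of 0.57, and without SP replicate 1 likewise, at 0.35. The neighbouring gene Saal1, a relative in name whose values were looked up after those of the set had been seen, had a mean log2 signal of 6.92 ± 0.10 (SD, n = 4) on the PBS arrays and differed by 0.078, which was not called (adjusted p = 0.567 by limma). It was called after another quantile normalization, at 0.52, and with centred arrays, at 0.36.

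**Figure D2:**
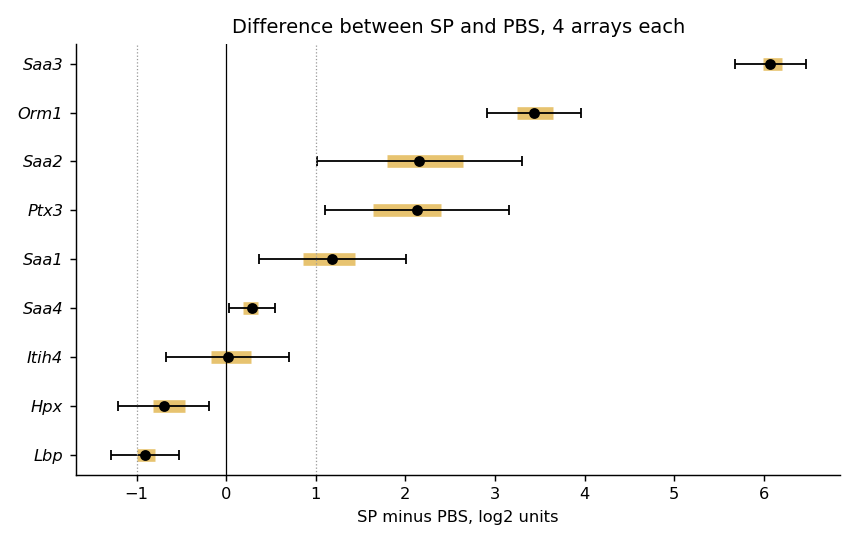
Difference between SP and PBS of each gene in log2 units (points, 4 arrays per group) with its 95% confidence interval (thin bars) and the range of the difference when any 1 array is left out (yellow). Dotted lines mark 2-fold. Saa3 and Orm1 lay beyond 2-fold with narrow intervals, Saa2, Ptx3 and Saa1 had wide ones, and the interval of Itih4 spanned 0.

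Ptx3 encodes pentraxin 3, a soluble pattern recognition protein that binds microbes and complement and that neutrophils store ready-made in their granules. The log2 signal of Ptx3 was 4.62, 4.73, 4.75 and 4.57 on the PBS arrays and 6.18, 5.98, 6.74 and 8.28 on the SP arrays. All SP arrays passed the 95th percentile of olfactory genes, and SP 4 was higher than the other SP arrays by over 1 log2 unit. Ptx3 rose 4.37-fold, from 4.67 ± 0.09 to 6.80 ± 1.04 (SD, n = 4, difference 2.13, SE 0.45), and without SP replicate 4 the difference was 1.63. SP 4 was also the highest SP array of all 7 marker lists of other lung cells, among them fibroblasts, at a mean log2 signal of 8.68 against 6.91 to 7.68, and monocytes and macrophages, at 9.91 against 8.50 to 9.59. Their part in the Ptx3 signal was not tested.

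The promoter window of Ptx3 at chr3:66219637-66219936 (plus strand, GRCm38.p6) is shown because it was the only one of 7 windows with a match to the NF-κB consensus. Capitals mark 1 C/EBP match and, across the start, 2 overlapping NF-κB matches.
Ptx3: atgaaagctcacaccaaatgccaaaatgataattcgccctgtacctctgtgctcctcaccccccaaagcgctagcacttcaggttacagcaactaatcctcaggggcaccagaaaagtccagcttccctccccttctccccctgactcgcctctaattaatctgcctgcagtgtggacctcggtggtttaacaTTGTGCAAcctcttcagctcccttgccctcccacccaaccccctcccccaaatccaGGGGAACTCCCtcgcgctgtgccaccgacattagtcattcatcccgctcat

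Matches to the NF-κB consensus occurred in 8.46% of all 32851 windows. A STAT motif (TTCNNNGAA, in 8.30% of windows) and the TATA box spelling TATAAA (in 13.6%) were searched on both strands. Each matched in the window of Itih4 alone among the 7. The TATAAA match lay across the start, from base -3 to 3 on the other strand, so it is no evidence of a TATA box. Looser spellings of the TATA box were not searched, so the other windows may hold one. C/EBP matches were found in 6 of 7. Matches of different motifs did not overlap. Lbp and Orm1 had no entry in the promoter table.

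**Figure D3:**
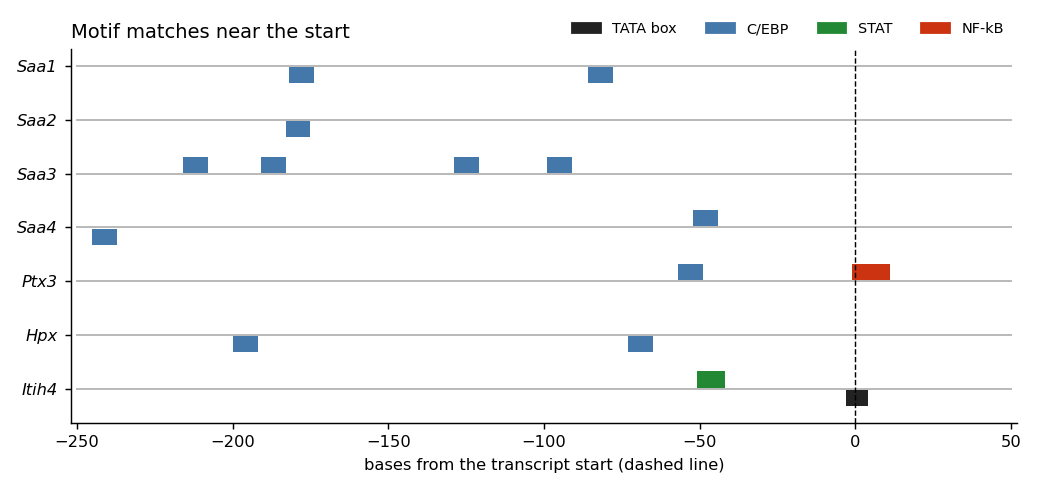
Matches to 4 motifs in the promoter windows of 7 genes, drawn in bases from the transcript start, above the line on the gene's strand and below it on the other. Saa3 held 4 C/EBP matches, and the NF-κB matches of Ptx3 lay at the start itself.

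Orm1 encodes orosomucoid, or alpha-1-acid glycoprotein, a plasma lipocalin that binds drugs and dampens inflammation and is also kept in neutrophil granules. Its log2 signal was 8.29, 8.50, 8.45 and 8.51 on the PBS arrays and 11.74, 11.24, 12.46 and 12.05 on the SP arrays. Unlike Saa1, Saa2 and Ptx3, it was well above background on every PBS array, and all SP values exceeded the highest PBS value by more than 2 log2 units. Orm1 rose 10.8-fold, from 8.44 ± 0.10 to 11.87 ± 0.51 (SD, n = 4, difference 3.44, SE 0.23). Its neighbour Orm3 rose 8.14-fold (adjusted p = 8.07e-05 by limma), from 5.06 ± 0.19 to 8.08 ± 0.60, with all PBS values in the range of olfactory genes and its fold therefore not exact, and Orm2, added after its values were seen, 6.16-fold (8.88e-05). Orm1 had its highest SP value on SP 3, where Orm2 had its lowest, and Orm3 was lowest on SP 2. The 3 orosomucoid genes are relatives whose sequences were not compared here. Their probes may bind each other's transcripts, so the rows may not be separate readings.

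Lbp encodes lipopolysaccharide-binding protein, which hands bacterial lipids to CD14 and the Toll-like receptors. It was lower in pneumonia. The log2 signal of Lbp was 10.71, 11.08, 10.62 and 10.53 on the PBS arrays and 9.50, 9.69, 10.04 and 10.08 on the SP arrays. The groups did not overlap, and PBS 2 was the highest array. The group means were 10.73 ± 0.24 and 9.83 ± 0.28 (SD, n = 4), a difference of -0.91 (SE 0.17), which is 1.87-fold and below the 2-fold threshold. Another quantile normalization put it beyond 2-fold, at -1.06. Its neighbour and relative Bpi, looked up afterwards, lay at background in both groups (4.34 and 4.40).

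Hpx encodes hemopexin, a plasma protein that captures free heme. Its log2 signal was 5.71, 6.65, 5.60 and 5.82 on the PBS arrays and 5.17, 5.34, 5.05 and 5.42 on the SP arrays. All PBS arrays passed the 95th percentile of olfactory genes and no SP array did. Hpx was lower by a difference of -0.70 (SE 0.22), and without PBS replicate 2, its highest array, the difference was -0.46. It kept an adjusted p of at most 0.05 in 7 of 13 settings. Hp, which encodes haptoglobin and was added after its values were seen, had means of 12.60 ± 0.03 and 12.37 ± 0.27 and was not called (adjusted p = 0.172 by limma). It was called lower after another quantile normalization (-0.41) and without SP replicate 3 (-0.33), and its sign turned with centred arrays. The heme oxygenase gene Hmox1, also added afterwards, rose 4.44-fold (adjusted p = 3.64e-05 by limma).

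Itih4 encodes a heavy chain of the inter-alpha-trypsin inhibitor family, a plasma protein of the acute phase. Its log2 signal was 9.39, 9.90, 9.37 and 9.47 on the PBS arrays and 10.10, 9.25, 8.78 and 10.06 on the SP arrays. The groups overlapped, and the SP arrays spread on both sides of the PBS arrays. The difference was 0.017 with a 95% confidence interval from -0.67 to 0.70, so a change of up to about that size in either direction could not be seen with 4 arrays per group. Its sign turned after another quantile normalization. Its neighbour Itih3, looked up afterwards, was at background in both groups (4.53 and 4.68).

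The full order of the SP arrays differed between genes, but most genes shared the top pair. SP 3 and SP 4 were the 2 highest SP arrays in 7 of the 9 genes, the 4 serum amyloid A genes, Ptx3, Lbp and Orm1. Itih4 and Hpx instead had their lowest value on SP 3. PBS 2 was the highest PBS array for 6 genes, Saa1, Saa2, Saa3, Lbp, Hpx and Itih4. SP 3 and SP 4 were also the highest SP arrays of the neutrophil list, at 13.02 and 12.67 against 12.43 and 12.56. PBS 2, however, was the lowest PBS array of that list, at 12.95 against 13.01 to 13.17. These orders are a description of 4 arrays per group.

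Markers of other lung cells were compared because acute phase genes can be expressed by many cell types. Of 8 alveolar type 2 genes, 5 were at least 2-fold lower and 0 higher in SP, beside 11.3% and 6.37% of all rows. Their mean log2 signal was 11.66 to 12.27 on the PBS arrays, with PBS 2 highest, and 9.74 to 11.21 on the SP arrays, with SP 3 lowest and SP 4 highest. Sftpc, the surfactant protein C gene, was at 13.32, 13.45, 13.26 and 13.29 in PBS and 12.42, 12.01, 12.32 and 12.83 in SP. The 6 genes named above as highest on PBS 2, those that rose and those that did not, shared that array with this list, and Hpx and Itih4 their lowest SP array. The club and endothelial lists also had their highest PBS value on PBS 2 and their lowest SP value on SP 3. The mesothelial, fibroblast, and monocyte and macrophage lists were lowest on SP 3 too, but highest among PBS arrays on PBS 1. The part of these cells in the values was not tested. In such bulk samples, fewer cells of a type and less RNA per cell cannot be told apart.

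The other lists followed different courses, and their counts at 2-fold stand beside 11.3% lower and 6.37% higher of all rows. Of 9 hepatocyte genes, 0 were called at 2-fold, and their mean lay between 4.56 and 4.80 on all 8 arrays. Alb, the albumin gene, named after its values were seen, had means of 4.82 ± 0.15 and 4.70 ± 0.03. All 9 hepatocyte genes had group means below the 95th percentile of olfactory genes. Alveolar macrophage genes were lower in 6 of 8 cases (mean 8.76 to 9.49 in PBS and 7.78 to 8.22 in SP). Chil3, among the brightest of that list, went the other way, from 11.03 to 11.99. Its difference of 0.97 was under 2-fold (adjusted p = 0.0216 by limma). Several alternatives lost that call, among them the replicate block and leaving out PBS replicate 3 or 4. The remaining gene of the list was not called, and its group means of 5.27 and 5.11 lay below the 95th percentile of olfactory genes. Of 5 club cell genes, 4 were lower (11.69 to 12.34 and 9.20 to 10.09). Endothelial genes were lower in 4 of 6 cases (10.44 to 11.46 and 8.94 to 9.99) and mesothelial genes in 5 of 5 (9.77 to 10.37 and 5.62 to 7.48). Of 8 monocyte and macrophage genes, 3 were higher (8.32 to 9.16 and 8.50 to 9.91), and of 6 fibroblast genes 1 was lower (7.54 to 8.40 and 6.91 to 8.68). The fibroblast count is too small to set apart from the share of all rows. Macrophages and fibroblasts can express Saa3 and Ptx3, and their part in those rises was not tested.

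**Figure D4:**
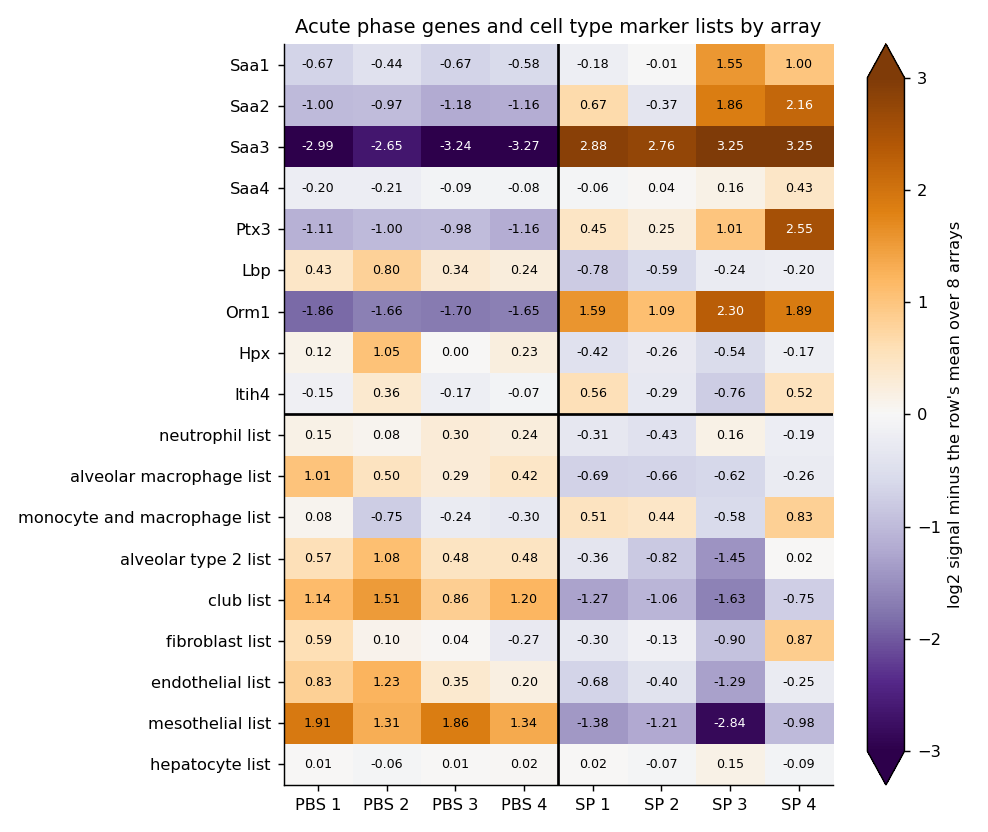
Log2 signal on each array minus the row's own mean over 8 arrays, for the 9 genes (above the line) and the mean of each cell type list (below it). The alveolar type 2, club and endothelial lists, Hpx and Itih4 all had their highest PBS value on PBS 2 and their lowest SP value on SP 3. The centred values of the hepatocyte list lay between -0.09 and 0.15 on all arrays.

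Other genes of the acute phase were compared next, to see how far the set stood for its pathway. Of 23 further genes counted here as induced in an acute phase, not all for plasma proteins, 7 were at least 2-fold higher and 0 lower. The shares of all rows were 6.37% and 11.3%, and the median difference was 0.34, beside 0.10 over all rows. The largest rise was that of Hamp, which encodes the iron hormone hepcidin. Its log2 signal was 4.89, 4.57, 4.80 and 4.68 on the PBS arrays and 8.60, 7.64, 9.62 and 7.53 on the SP arrays, a rise of 12.2-fold (adjusted p = 0.000285 by limma) whose size is not exact, since all PBS values lay in the range of olfactory genes. Called genes also included Serpina3n, Serpina3m and Cfb. Lcn2, the siderophore-binding neutrophil lipocalin, was at 13.32 ± 0.09 and 13.54 ± 0.09 (SD, n = 4) and was not called (adjusted p = 0.0505 by limma), except by the methods' t-test and with centred arrays. Mt2, a metallothionein gene, was higher by 0.77 log2 units (adjusted p = 0.00291), under 2-fold, and by 1.05 with centred arrays.

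Genes whose plasma products fall during an acute phase, together with liver-specific genes, were compared in the same way. The median difference of the 12 genes was 0.085. At 2-fold, 2 were lower and 0 higher, counts too small to set apart from the 11.3% and 6.37% of all rows. The pair were Rbp4, for retinol-binding protein, which fell 5.93-fold from 8.84 ± 0.26 to 6.27 ± 0.14 (adjusted p = 8.30e-06 by limma), and Trf, for the iron carrier transferrin, which fell 3.72-fold from 11.94 ± 0.14 to 10.04 ± 0.38 (0.000101).

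Of 9 cytokines that induce acute phase genes, 5, namely Il6, Il1a, Tnf, Lif and Ifng, were at least 2-fold higher and 0 lower. Of all rows, 6.37% were higher and 11.3% lower, and the median difference of the cytokines was 1.21. The call of Ifng, with a difference of 1.21, was lost without PBS replicate 2 or 4 or SP replicate 1, and by the methods' t-test. Il1a rose 35.3-fold (adjusted p = 1.62e-05 by limma) and Il6 17.5-fold (6.68e-05). The log2 signal of Il6 ran from 4.86 to 5.82 in PBS and from 8.74 to 10.42 in SP, and its highest SP arrays, SP 3 and SP 4, were also those of the 7 genes of the set named above, Lbp included, and of the neutrophil list. On 3 of the 4 PBS arrays Il6 lay below the 95th percentile of olfactory genes, so its fold is not exact. Il1b and Osm, the gene of oncostatin M, were bright in both groups and were not called (adjusted p = 0.242 and 0.173), except with centred arrays. Of 9 receptor genes for these cytokines, 1 was at least 2-fold higher and 2 lower, a count too small to set apart from the 6.37% and 11.3% of all rows. Tnfrsf1b, for a TNF receptor, rose 4.15-fold (adjusted p = 0.000909), Lifr, for the leukaemia inhibitory factor receptor, fell 3.06-fold (0.00579), and Il6st, for the shared signalling chain gp130, fell 2.27-fold (0.00490). Il1r2, for the decoy receptor of interleukin-1, was not called (0.143), except with centred arrays.

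Among 14 transcription factors and feedback genes, 5 were at least 2-fold higher and 0 lower, beside 6.37% and 11.3% of all rows. The median difference of the 14 was 0.75. Relb and Nfkb2, subunits of NF-κB, rose 8.53-fold (adjusted p = 1.95e-05 by limma) and 4.54-fold (4.26e-05). Stat3 had means of 12.04 ± 0.22 and 12.20 ± 0.03 and was not called (0.266), except with centred arrays (0.44), and its sign turned after another quantile normalization. Nfkbiz, for an atypical inhibitor of NF-κB, differed by 0.74 and was not called (0.0889), except with centred arrays or the replicate block.

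Of 19 receptors and partners of the proteins, 6 were at least 2-fold higher and 3 lower. The shares of all rows were 6.37% and 11.3%, and the median difference was 0.57. The 3 lower genes are too few to set apart from the 11.3% of all rows. Fcgr1, a receptor for IgG and for pentraxins, rose 32.6-fold (adjusted p = 9.36e-07 by limma) and Vcan, a hyaluronan-binding matrix proteoglycan, 6.68-fold (6.52e-05). Cd36, a scavenger receptor that takes up serum amyloid A, fell 3.59-fold (0.000865). Of the partners of Lbp, Cd14 was at 12.41 ± 0.69 and 13.19 ± 0.21 and was not called (0.0684), except with centred arrays, with the replicate block, with dim rows left out or without PBS replicate 3, while Tlr4 and Ly96, added after their values were seen, were 2.84-fold (0.000717) and 2.00-fold (0.0182) higher. Fpr1, a formyl peptide receptor, was not called (0.254).

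Of 11 genes related to the set by protein family, name or function, 2 were at least 2-fold lower and 0 higher. These counts are too small to set apart from the shares of all rows, 11.3% and 6.37%. The median difference of the 11 genes was 0.052. Itih2 fell 6.44-fold (adjusted p = 1.67e-05 by limma), from 7.80 ± 0.28 to 5.11 ± 0.27, so it reached background in SP, while Itih4 of the same family did not differ beyond its spread. Itih1, named after its values were seen, went the other way, from 4.75 ± 0.13 to 5.75 ± 0.22, a difference of 0.99 (adjusted p = 0.000385 by limma). It started at background, and SP 3 and SP 4, at 5.55 and 5.61, still lay below the 95th percentile of olfactory genes. Pltp, for the phospholipid transfer protein of the Lbp family, fell 6.31-fold (0.000161), from 11.40 ± 0.39 to 8.74 ± 0.51. Pglyrp1, for a peptidoglycan recognition protein of neutrophil granules, was lower by a difference of -0.99 (0.0242), a call lost without any 1 of 5 arrays.

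**Figure D5:**
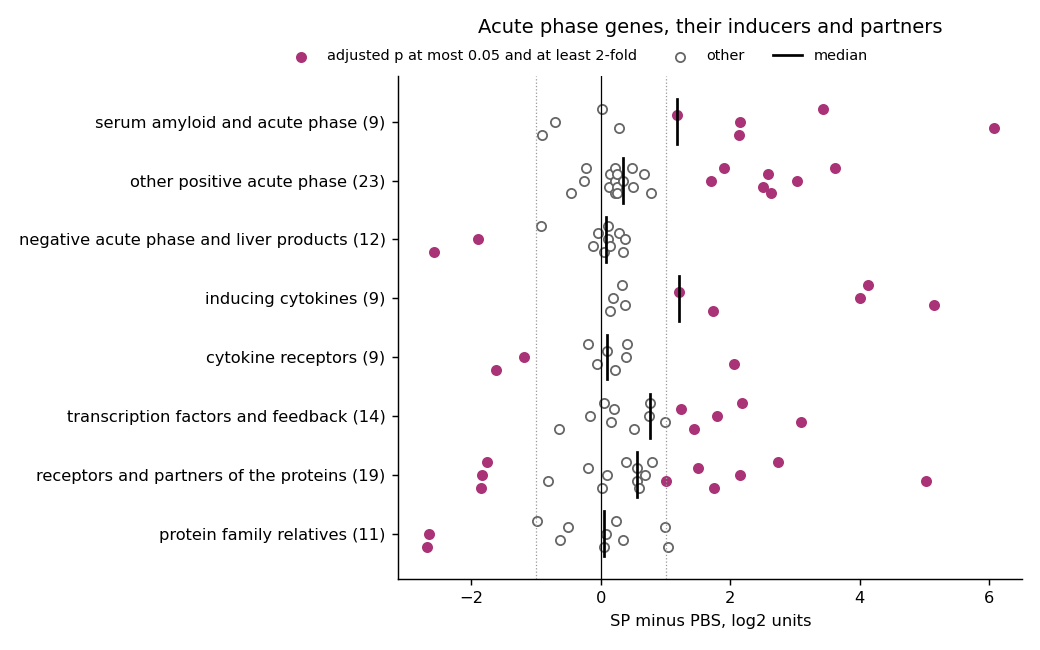
Difference between SP and PBS in log2 units for each gene of the set and of 7 lists of related genes, with the number of genes in brackets, filled where the adjusted p was at most 0.05 and the difference at least 2-fold, and a black bar at the median. Inducing cytokines lay above 0, whereas receptors and partners spread to both sides.

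Genes with the most similar pattern were sought by the root mean square (RMS) difference of row-centred log2 values over the 8 arrays, which is dominated by the step between groups. Nearest to Saa3 were Mreg (RMS difference 0.40) and Ifit2 (0.47), and to Orm1 Fam71f2 (0.24) and Daxx (0.25). Nearest to Ptx3 were Adamts4 (0.23) and Rgs16 (0.24), to Saa2 Rgs16 (0.38) and Ereg (0.40), and to Saa1 Cd38 (0.22) and Rgcc (0.23). Rgs16 was thus named for both Saa2 and Ptx3. Among these 5 genes, the closest pair was Saa2 and Ptx3 (RMS difference 0.41).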

How the data were processed

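Lung neutrophil RNA from 8 samples, 4 PBS and 4 SP, was hybridised to Affymetrix Mouse Gene 1.1 ST arrays from 250 ng of total RNA. Per the methods, the authors made log2 values with RMA background correction, an adjustment for the sequence and GC content of probes, quantile normalization between arrays and a median polish over the probes of a gene. The deposited log2 values are relative within an array, so a change in total RNA per cell cannot be read from them. Which probes make up a row is not given in the sources used here. Array medians were 6.06 to 6.20 in PBS and 5.78 to 5.91 in SP.

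Accessions were matched without versions to symbols of the RefSeq table for GRCm38.p6, and 19915 of 24625 rows (80.9%) matched. Where a symbol had several rows, the row with the highest mean was used, which no named gene needed. Rows were compared with limma 3.58.1 in R 4.3.3 (lmFit and eBayes, two-sided, no covariates). P-values were adjusted by Benjamini and Hochberg over the 24625 rows, and calls needed an adjusted p of at most 0.05 and, for a call at 2-fold, at least 1 log2 unit. On simulated data with 200 changed rows among 24625, limma recovered 89.5% with 11 false calls.

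The 9 genes and all lists were chosen with earlier results of these data known. Named genes were the 9, the 2 brightest genes of each list, the 2 largest called rises and falls of each list of related genes, and the 2 genes most like each member called at 2-fold. A further 16 were added after their values were seen. Some genes of the lists are not reported here by name. Serpina1b, Ly6g, Scgb3a2, Wt1 and Eif2s3y had no matched row. Promoter windows were aligned with Biopython 1.88. Alternatives were the methods' t-test, centred arrays, another quantile normalization, dim rows left out, the replicate block and each array left out.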

Additional observations from a re-analysis of the deposited data

Results flagged for a closer look

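Dixon's ratio was compared with its 95% critical value for 79 named genes in both groups, 158 groups of 4 samples. It marked 5 values, and chance alone marks about 1 in 20 groups. None belonged to the 9 acute phase genes. Il1a was at 7.15 in PBS 2 against 8.63 to 8.73 in the other PBS samples. Trf was at 12.14 in PBS 2 against 11.86 to 11.88. Osm was at 12.59 in SP 3 against 12.38 to 12.41. Car4, counted here among the alveolar macrophage genes, was at 10.84 in SP 4 against 9.88 to 9.95. Cd38 was at 10.46 in PBS 1 against 10.19 to 10.22.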

How the results depend on the processing

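Of the 9 genes, Saa2, Saa3, Ptx3 and Orm1 were called at 2-fold under every alternative that tested them. With dim rows left out, 2 genes were called higher, since Saa1, Saa2 and Ptx3 were not tested there. Another quantile normalization called 1 gene, Lbp, lower at 2-fold. Saa1 lost its call by the methods' t-test (1.18) and after another quantile normalization (1.25), and leaving out 1 array gave 0.86 to 1.44. Saa4 gained a call with centred arrays (0.57) and without SP replicate 1 (0.35), and ranged from 0.19 to 0.35 without 1 array. Hpx lost its call by the methods' t-test (-0.70) and with centred arrays (-0.42), and ranged from -0.82 to -0.46, with the call lost without PBS replicate 4 or SP replicate 1, 2 or 3. Itih4 turned to -0.00189 after another quantile normalization and ranged from -0.17 to 0.27. The cause was not tested. With centred arrays, 1 cytokine receptor was lower in place of 2, 8 transcription factors were higher in place of 5, and 1 relative of the set was higher in place of 0. That last count was also 1 after another quantile normalization and 0 to 1 without 1 array. Signs turned with centred arrays for S100a8 (0.099), Hp (0.055) and Alb (0.17), and after another quantile normalization for Stat3 (-0.091), Bpi (-0.0887) and Itih3 (-0.00817). In the other named genes, 827 alternative values kept sign and side of the threshold, 43 lost a call and 26 gained one.

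The replicate numbers did not pair the samples. Deviations of same-numbered samples correlated at 0.016, 0.030, 0.35 and -0.27, and not every sample correlated best with its own number. With the number as a block, 5 genes of the set were again higher and 0 lower at 2-fold. The number of arrays limits the precision, and signals near background carry no exact fold.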
